A study of Oryza sativa with 28 samples.

Results

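Small RNA pathway genes of rice were followed through young panicles of a male-sterile line and its fertile counterpart. The 10 genes described were chosen by name from the expression tables: the Argonautes AGO1a (LOC_Os02g45070), AGO1b (LOC_Os04g47870), AGO1c (LOC_Os02g58490), AGO1d (LOC_Os06g51310), MEL1 (LOC_Os03g58600), AGO18 (LOC_Os07g28850) and AGO7 (LOC_Os03g33650), the Dicers DCL3b (LOC_Os10g34430) and DCL4 (LOC_Os04g43050), and the RNA-dependent RNA polymerase RDR6 (LOC_Os01g34350). All 10 were found among the 47919 genes of the tables, and all 10 passed the filter on low counts in every comparison. Wuxiang S (WXS) is an indica photo-thermo-sensitive genic male-sterile line, and every plant sampled here carried the mutant tms5 locus, which encodes a defective RNase Z. WXS(S) plants stayed in a summer paddy field, under a photoperiod of 14 h light and 10 h dark and at a higher temperature than WXS(F), and were male-sterile. WXS(F) plants were moved, when the panicle was about 1 cm long, to a growth chamber at an average of 22 °C with the same photoperiod and 77% relative humidity, and were fertile. Whole young panicles were sampled at the meiosis period (P3) and at the uninucleate period (P4), which gave the groups FP3, SP3, FP4 and SP4 with 3 RNA-seq libraries each. Fertility type cannot be told apart from temperature or from field against chamber in this design, and no group lacked the tms5 mutation. The panicle holds many tissues, so germ cells are a part of each sample.

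Argonaute proteins bind small RNAs and use them to find and silence matching RNA. In grass anthers, a transcript cut under the guidance of a microRNA is copied into double-stranded RNA by RDR6 and then diced into phased small interfering RNAs (phasiRNAs), of a shorter class by DCL4 and of a longer class by DCL3b, also called DCL5. MEL1 is the germline Argonaute of rice that carries the shorter class and is needed for meiosis, AGO18 is an Argonaute clade found in grasses and expressed in reproductive tissue, and AGO1d is, with AGO1b, an AGO1-type protein with a role in the anther. AGO7, with RDR6 and DCL4, makes the trans-acting siRNAs that pattern shoots and leaves.

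Total counts per library ranged from 30577833 to 51193158. Replicates of a group had Pearson correlations of log2 CPM (counts scaled to library size) of at least 0.980, except that SP3 replicate 3, the shallowest library, correlated with the other SP3 replicates at 0.970 to 0.972. It stood apart from the rest, so the calls below that change without it are named where they occur. None of the calls made for the 10 genes was lost when it was left out. Levels are given below as CPM scaled by TMM factors over all 12 libraries, and fold changes come from edgeR fits to the groups compared, with their standard error (SE) and an adjusted p. A gene differed at an adjusted p below 0.05, and it was a differentially expressed gene (DEG) when the absolute log2 fold change was also above 1. The lowest count of any of the 10 genes in any library was 103 (AGO7), and the next lowest gene minimum was 163 (AGO18), whereas the other 8 genes had at least 1097 counts everywhere.

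The levels of these genes spanned a wide range on the FPKM scale, which corrects for transcript length. AGO1b had the highest FPKM of the 10 in every group, with means of 123 (FP3), 206 (SP3), 74.4 (FP4) and 119 (SP4). AGO1d came second in every group, at 52.2, 105, 56.5 and 62.6 FPKM in the same order. The place of MEL1 changed between groups, and it ranked 3 of 10 in SP3 with 49.5 FPKM, 5 of 10 in FP3 with 20.5 and in SP4 with 23.9, and 7 of 10 in FP4 with 5.61. AGO7 and AGO18 lay at the foot of the order everywhere, between 0.360 and 4.63 FPKM per library. Neighbours in this order whose replicate ranges overlapped were AGO7 and AGO18 in the P3 groups, AGO1a and AGO1c and also DCL4 and DCL3b in SP3, and DCL4 and RDR6 in SP4. All other neighbours had separate ranges.

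**Figure D1:**
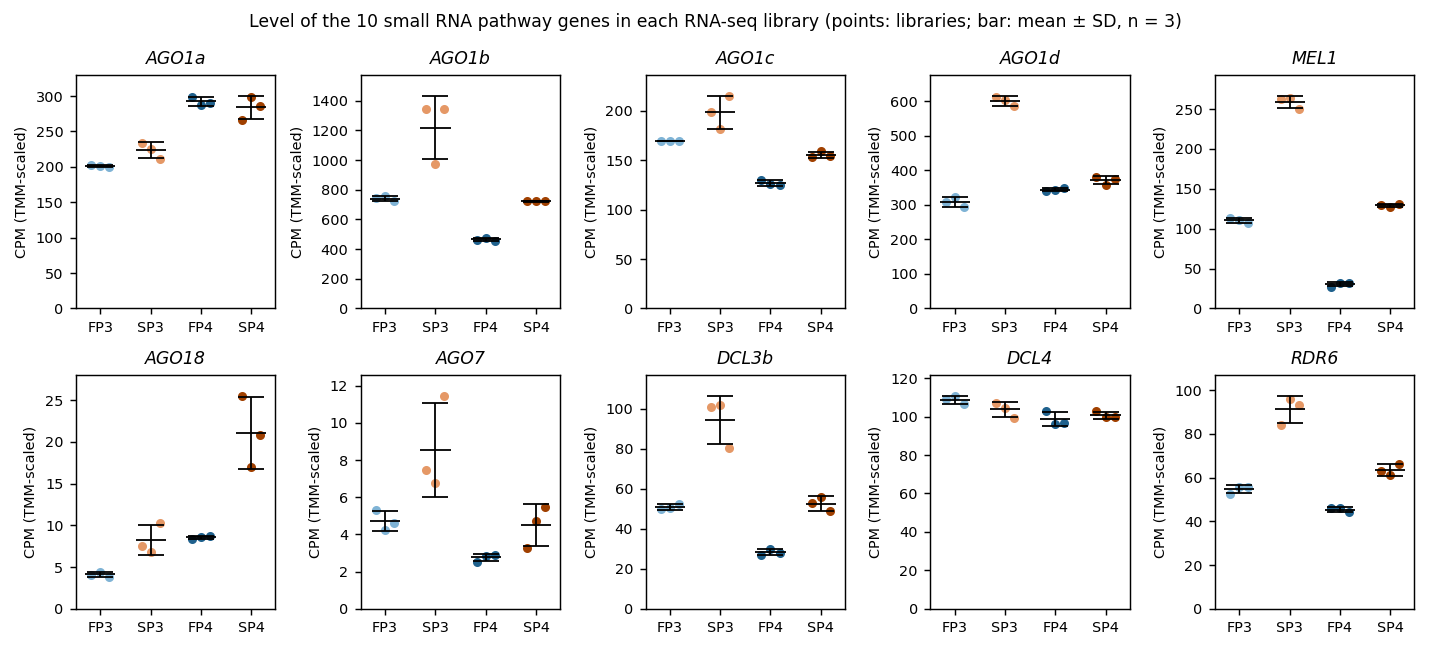
Level of each of the 10 genes in CPM (linear axis from 0, a separate scale for each gene) in the 4 groups, with points for libraries and a bar for the mean ± SD of 3 libraries. MEL1 runs from 30.3 CPM in FP4 to 258.7 in SP3, AGO18 is highest in SP4 at 21.1, and DCL4 stays between 96.3 and 111 CPM in all 12 libraries.

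MEL1 had the largest difference of the 10 genes between the types at both stages. Its level was 113, 111 and 107 CPM in the FP3 libraries against 262, 264 and 249.7 in the SP3 libraries. At P4 the FP4 libraries held 27.4, 31.5 and 32.0 CPM, and the SP4 libraries 130.3, 127 and 131 CPM. All WXS(F) libraries thus lay below all WXS(S) libraries of the same stage, and the FP4 libraries lay below every other library. In FP3 the level was 2.27-fold lower than in SP3 (log2 fold change -1.18, SE 0.07, adjusted p = 6.61e-05). In FP4 it was 4.32-fold lower than in SP4 (log2 fold change -2.11, SE 0.07, adjusted p = 2.43e-06). From P3 to P4 it fell by 1.87 on the log2 scale in WXS(F) (SE 0.07, adjusted p = 4.74e-06) and by 0.96 in WXS(S) (SE 0.07, adjusted p = 0.000203). The difference between types was larger at P4 than at P3, with an interaction of type and stage of -0.87 on the log2 scale (SE 0.09, adjusted p = 0.000102). Over 19 alternative fits the interaction ranged from -0.996 to -0.69, and its adjusted p reached at most 0.00988.

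The summed level of germ cell markers had the same order of groups as MEL1, but not every marker did. The summed FPKM of 10 meiocyte genes (PAIR1, PAIR2, PAIR3, REC8, ZEP1, MEL2, COM1, SDS, RCK and HEI10) was 29.7 to 39.1 in SP3, 25.7 to 29.4 in SP4, 17.2 to 23.4 in FP3 and 13.9 to 14.4 in FP4, and no marker of this list was at 0 in any library. Of these 10 genes, 6 were lower and 0 higher in WXS(F) at each stage, and from P3 to P4 6 fell and 0 rose in WXS(F). In WXS(S), 3 fell and 2 rose, the latter being PAIR3 (from 17.5 to 26.4 CPM) and COM1 (from 2.47 to 6.77 CPM), whereas MEL1 fell. Fewer cells of a type and less RNA per cell cannot be told apart in bulk panicles, and the part of meiocyte content in the MEL1 result was not tested. MEL1 also varied against this sum. The ratio of MEL1 FPKM to the meiocyte sum was 1.01 ± 0.09 (SD, n = 3) in FP3, 1.41 ± 0.08 in SP3, 0.40 ± 0.03 in FP4 against 0.87 ± 0.03 in SP4, with no overlap between the groups. This ratio was chosen after the values were seen, and it depends on which markers are in the sum. PAIR1, which is in the sum, varied widely among replicates, with 60 to 1504 counts in FP3, 100 to 748 in FP4 and 231 to 1470 in SP4. At P4, 3 markers were lower in WXS(F) by more than MEL1 (4.32-fold). These were PAIR2 (4.54-fold), PAIR3 (7.55-fold) and COM1 (15.6-fold, with at most 19 counts in an FP4 library). ZEP1 (2.27-fold), MEL2 (1.38-fold) and HEI10 (1.32-fold) were lower by less, and 4 markers had no call.

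AGO18 was lower in WXS(F) at both stages and rose from P3 to P4 in both types. Counts behind it were small, at 4.10, 4.44 and 3.81 CPM in FP3, 7.51, 6.86 and 10.2 in the SP3 libraries, 8.38, 8.64 and 8.69 in FP4 against 25.5, 16.9 and 20.9 in SP4. The FP4 libraries reached the level of the SP3 libraries, and SP4 stood above all others. AGO18 was 1.94-fold lower in FP3 than in SP3 (log2 fold change -0.95, SE 0.21, adjusted p = 0.0121) and 2.49-fold lower in FP4 than in SP4 (log2 fold change -1.31, SE 0.15, adjusted p = 0.000566). It rose 2.08-fold in WXS(F) (log2 fold change 1.06, SE 0.10, adjusted p = 0.000287) and 2.64-fold in WXS(S) (log2 fold change 1.399, SE 0.23, adjusted p = 0.00419). An interaction was not detected (-0.31, SE 0.25, adjusted p = 0.423).

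The summed FPKM of 8 tapetum genes (TDR, UDT1, GAMYB, PTC1, CYP703A3, CYP704B2, OsC6 and CP1) ran in another order than AGO18. It was 49.3 to 58.5 in FP3, 23.3 to 32.9 in SP3, 791 to 849 in FP4 against 48.6 to 49.1 in SP4. FP4 therefore held the highest tapetum sum, of which OsC6 gave 623 of a mean of 818 FPKM, and AGO18 was highest in SP4. Single markers differed from the sum. TDR, like AGO18, was lowest in FP3 and highest in SP4, at 11.9 CPM (FP3), 27.9 (SP3), 36.4 (FP4) and 91.1 (SP4). CP1, a late tapetal protease, was at 0 in 1 SP4 library, and no other marker of any list was at 0. Of the 8 tapetum genes, 3 were higher and 1 (TDR) lower in WXS(F) at P3, and 5 were higher and 1 (TDR) lower at P4. The bHLH regulators TIP2 and EAT1, described below, were not in this list. TIP2 was lower in WXS(F) at both stages (log2 fold change -1.91 and -2.69). EAT1 was lower at P3 (-1.30, a call kept in 6 of 14 alternatives) and higher at P4 (0.79). The part of tapetum state in the levels of the pathway genes was not tested.

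AGO7 was lower in WXS(F) at both stages, with calls that were lost in several alternatives. Its level was 4.23 to 5.29 CPM in FP3 (median 4.59), 6.75 to 11.4 in SP3 (median 7.44), 2.54 to 2.90 in FP4 (median 2.86) against 3.25 to 5.49 in SP4 (median 4.72). The WXS(F) and WXS(S) libraries of a stage did not overlap. It was 1.77-fold lower in FP3 (log2 fold change -0.83, SE 0.26, adjusted p = 0.0392) and 1.64-fold lower in FP4 (log2 fold change -0.71, SE 0.22, adjusted p = 0.0338). The P3 call was lost without FP3 replicate 1, 2 or 3 (adjusted p = 0.0737, 0.0943 and 0.109). The P4 call was lost without FP4 replicate 1, 2 or 3 (0.0980, 0.0773 and 0.0743) and without SP4 replicate 2 or 3 (0.0813 and 0.0957, all adjusted p). AGO7 fell by 0.76 on the log2 scale from P3 to P4 in WXS(F) (SE 0.15, adjusted p = 0.00537). In WXS(S) the change of -0.90 (SE 0.30) did not pass the threshold (adjusted p = 0.0534), although it did in 6 of the 14 alternatives, among them DESeq2 (adjusted p = 0.00957).

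The 4 AGO1 paralogs, which carry microRNAs and short siRNAs, did not move together. How reads shared by such similar genes were assigned is not stated, so small differences among them are uncertain. AGO1b stood at 743, 755 and 726 CPM in FP3, 1343, 972 and 1343 in the SP3 libraries, 463, 477 and 456 in FP4 against 722, 728 and 722 in SP4. Both stages had a lower level in WXS(F), the log2 fold change being -0.68 at P3 (SE 0.15, adjusted p = 0.0127) and -0.65 at P4 (SE 0.03, adjusted p = 1.54e-05). Its P3 call was lost without FP3 replicate 3 (adjusted p = 0.0524). From P3 to P4 it fell by 0.67 in WXS(F) (SE 0.03, adjusted p = 1.80e-05) and by 0.72 in WXS(S) (SE 0.15, adjusted p = 0.0100), with an interaction of 0.08 (SE 0.15, adjusted p = 0.758).

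AGO1d was lower in WXS(F) mainly at P3. Its level was 307, 322 and 294 CPM in the FP3 libraries and 614, 605 and 585 CPM in the SP3 libraries. At P4 it was 339, 344 and 348 CPM in FP4 against 381, 359 and 376 CPM in SP4. The SP3 libraries thus lay far above the other 9, which spanned 294 to 381 CPM. In FP3 the level was 1.90-fold lower than in SP3 (log2 fold change -0.92, SE 0.08, adjusted p = 0.000300), and from SP3 to SP4 it fell by 0.65 (SE 0.07, adjusted p = 0.00109). The test of the difference between stages gave an interaction of 0.85 (SE 0.08, adjusted p = 4.16e-05), which lay between 0.72 and 0.90 over 19 alternatives with an adjusted p of at most 0.00348. In FP4 the level was 1.09-fold lower than in SP4 (log2 fold change -0.13, SE 0.04, adjusted p = 0.0234), a call lost in 9 of 14 alternatives. Among these were the fits without FP4 replicate 1, 2 or 3 (adjusted p = 0.0662, 0.0722 and 0.0546) and without SP4 replicate 1 or 3 (adjusted p = 0.0567 and 0.0782). Its rise of 0.16 from FP3 to FP4 (SE 0.04, adjusted p = 0.0176) was lost without FP4 replicate 3 (adjusted p = 0.0549) and with library totals in place of TMM factors (0.06, adjusted p = 0.485). The rise was also lost with no filter on low counts (adjusted p = 0.0566) and in limma on log2(FPKM + 1) and log2(FPKM + 0.1) (0.222 and 0.225).

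AGO1a rose from P3 to P4 in both types. It had 200.3 to 203 CPM in FP3, 211 to 234 in SP3, 288 to 299 in FP4 against 267 to 299 in SP4. The rise was 1.45-fold in WXS(F) (log2 fold change 0.54, SE 0.03, adjusted p = 2.43e-05) and 1.31-fold in WXS(S) (log2 fold change 0.39, SE 0.08, adjusted p = 0.00964), the latter lost in limma on log2(FPKM + 1) (0.32, adjusted p = 0.129) and on log2(FPKM + 0.1) (0.33, adjusted p = 0.133). Between types no difference was called at P3 (-0.10, half-width of the 95% interval 0.16, adjusted p = 0.256) or at P4 (0.03, half-width 0.12, adjusted p = 0.685). Without SP3 replicate 3 the P3 difference became -0.19 with an adjusted p of 0.0186. The interaction of 0.19 (SE 0.08, adjusted p = 0.140) was not called, but it was without SP3 replicate 3 (0.26, adjusted p = 0.0185) and with DESeq2 (0.23, adjusted p = 0.0219).

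AGO1c showed small differences. Its level was 169 to 169.6 CPM in FP3, 182 to 215 in SP3, 125 to 130.3 in FP4 against 153 to 159 in SP4. It was 1.24-fold lower in FP4 than in SP4 (log2 fold change -0.31, SE 0.04, adjusted p = 0.000717), and it fell by 0.42 from FP3 to FP4 (SE 0.03, adjusted p = 7.18e-05). No call was made at P3 (-0.19, half-width of the 95% interval 0.23, adjusted p = 0.162), but a call was made without SP3 replicate 2 (adjusted p = 0.0319) or 3 (adjusted p = 0.0494), and in a single model of the 12 libraries (adjusted p = 0.0105). Its fall of 0.31 from SP3 to SP4 (SE 0.10, adjusted p = 0.0456) was kept in 7 of 14 alternatives. That call was lost without SP3 replicate 1 (adjusted p = 0.0501) or without SP4 replicate 1, 2 or 3 (adjusted p = 0.133, 0.111 and 0.136). Library totals in place of TMM factors (adjusted p = 0.0672), no filter on low counts (0.0737) and a block for the replicate number (0.0948) lost it too.

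The share of AGO1a in the AGO1 clade was higher and that of AGO1b lower at P4 than at P3 in both types. FPKM summed over the 4 paralogs was 234 ± 12.2 (SD, n = 3 here and in the values that follow) in FP3, 380.4 ± 39.7 in SP3, 195 ± 11.6 in FP4 against 251 ± 5.18 in SP4. AGO1b made up 52.6% ± 0.05 of this sum in FP3, 54.1% ± 4.59 in SP3, 38.2% ± 0.91 in FP4 against 47.3% ± 0.13 in SP4. AGO1a made up 13.1% ± 0.39, 9.28% ± 1.25, 22.3% ± 0.54 and 17.5% ± 0.98 in the same order. The replicates of the AGO1a share did not overlap between any groups, and those of the AGO1b share did not overlap between the stages of a type. AGO1d held 22.3% ± 0.60, 27.7% ± 3.14, 29.1% ± 0.46 and 24.9% ± 0.99, again in the order FP3, SP3, FP4 and SP4. Its mean share was highest in FP4, where the replicates overlapped with those of SP3, although its FPKM was highest in SP3. AGO1c made up 12.003% ± 0.27 (FP3), 8.90% ± 0.49 (SP3), 10.4% ± 0.32 (FP4) and 10.2% ± 0.14 (SP4). In WXS(F) the mean share of AGO1d was higher and that of AGO1c lower at P4 than at P3, whereas in WXS(S) both means differed the opposite way. The AGO1d shares of the SP3 libraries (25.4% to 31.3%) overlapped with those of SP4 (23.8% to 25.7%). SP3 replicates varied the most in these shares, AGO1b making up 48.8% to 56.9% there.

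**Figure D2:**
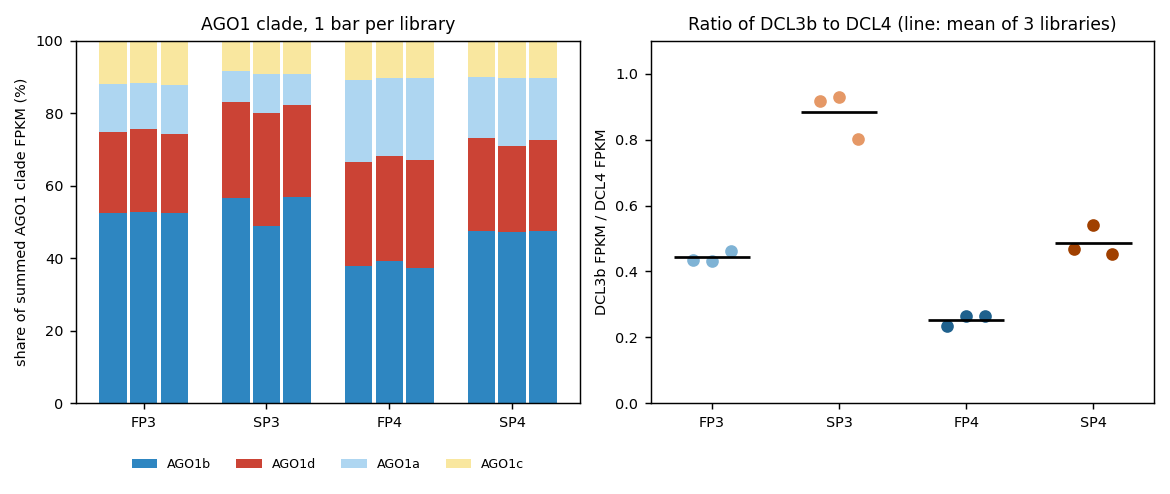
Left, share of each AGO1 paralog in the summed AGO1 clade FPKM (percent, stacked to 100) with a bar for each library, and right, the ratio of DCL3b FPKM to DCL4 FPKM with points for libraries and a line for the mean of 3. The AGO1a share is 22.3% in FP4 against 9.28% in SP3, and the ratio runs from 0.254 in FP4 to 0.883 in SP3.

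The Dicers differed from each other. DCL3b was 49.7, 50.5 and 52.4 CPM in FP3, 101, 102 and 80.4 in the SP3 libraries, 27.0, 29.8 and 28.1 in FP4 against 52.6, 56.1 and 48.8 in SP4. FP3 and SP4 overlapped, whereas SP3 lay above and FP4 below all other libraries. DCL3b was 1.80-fold lower in FP3 than in SP3 (log2 fold change -0.84, SE 0.09, adjusted p = 0.000747) and 1.87-fold lower in FP4 than in SP4 (log2 fold change -0.91, SE 0.07, adjusted p = 9.59e-05). From P3 to P4 it fell by 0.84 in WXS(F) (SE 0.06, adjusted p = 4.95e-05) and by 0.80 in WXS(S) (SE 0.10, adjusted p = 0.00169). The interaction was close to 0 with a half-width of the 95% interval of 0.19, and its sign changed among the alternatives.

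DCL4 stayed within 96.3 to 111 CPM in all 12 libraries. No difference between types was called at P3 (0.11, half-width of the 95% interval 0.15, adjusted p = 0.204) or at P4 (-0.04, half-width 0.10, adjusted p = 0.444). In WXS(F) it fell by 0.14 from P3 to P4 (SE 0.04, adjusted p = 0.0210), a call lost without FP3 replicate 1 or 2 (adjusted p = 0.0733 and 0.0562) and without FP4 replicate 2 or 3 (adjusted p = 0.0912 and 0.0627). Limma on log2(FPKM + 1) and on log2(FPKM + 0.1) lost this call too (adjusted p = 0.183 and 0.182). In WXS(S) no change was called, with a log2 fold change near 0 (half-width 0.16, adjusted p = 0.970). The ratio of DCL3b to DCL4 FPKM was 0.443 ± 0.017 (SD, n = 3) in FP3, 0.883 ± 0.071 in SP3, 0.254 ± 0.018 in FP4 against 0.488 ± 0.047 in SP4.

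RDR6, which makes the double-stranded precursor for both Dicers, was lower in WXS(F) at both stages. Its level was 52.5 to 55.8 CPM in FP3, 84.2 to 95.9 in SP3, 44.0 to 46.1 in FP4 against 61.0 to 66.3 in SP4, with no overlap between any groups. It was 1.62-fold lower in FP3 (log2 fold change -0.70, SE 0.09, adjusted p = 0.00118) and 1.41-fold lower in FP4 (log2 fold change -0.50, SE 0.05, adjusted p = 0.000299). It fell from P3 to P4 by 0.27 in WXS(F) (SE 0.05, adjusted p = 0.00302) and by 0.48 in WXS(S) (SE 0.09, adjusted p = 0.00689). The interaction of 0.25 (SE 0.09) did not pass the threshold (adjusted p = 0.0759) but passed it without SP3 replicate 3 (adjusted p = 0.0498), with at least 10 counts in every library (adjusted p = 0.0458) and with DESeq2 (adjusted p = 0.0152).

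**Figure D3:**
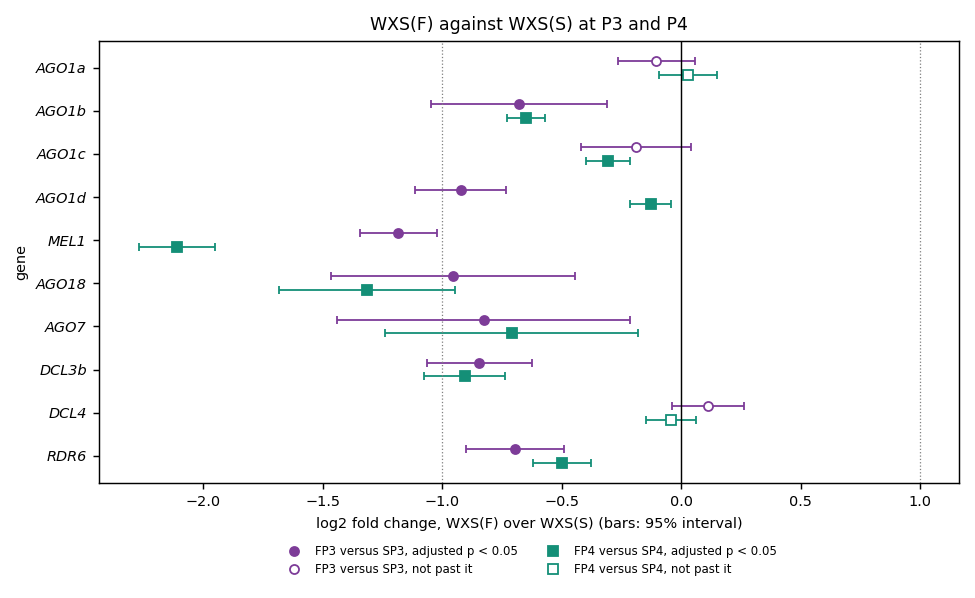
Log2 fold change of WXS(F) over WXS(S) for each of the 10 genes at P3 (circles) and P4 (squares), with bars for the 95% interval, filled symbols for an adjusted p below 0.05 and dotted lines at a log2 fold change of -1 and 1. MEL1 lies farthest left at both stages (-1.18 and -2.11), AGO1d moves from -0.92 at P3 to -0.13 at P4, and AGO1a and DCL4 have open symbols at both.

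Counted over the 10 genes, 7 were lower and 0 higher in FP3 than in SP3, where 19.2% of the 24405 genes tested were lower and 23.7% higher. In FP4 against SP4, 8 were lower and 0 higher, where 24.5% of 24645 genes were lower and 28% higher. At an unadjusted p below 0.05 the counts in either direction were 7 and 8 as well, but the shares of all genes at that threshold were not computed. DESeq2 and limma also called 0 of the 10 genes higher in WXS(F) at either stage. The median log2 fold change of the 10 genes was -0.76 at P3 and -0.58 at P4, beside 0.04 and 0.00 over all genes. With the fold threshold added, MEL1 was the DEG at P3 (1 of 10, where 6.74% of all genes were lower DEGs and 14.8% higher ones), and MEL1 and AGO18 were the DEGs at P4 (2 of 10, where 6.87% were lower DEGs and 15.4% higher ones). The P3 count became 2 without FP3 replicate 2 or SP3 replicate 1, with AGO18 added, and 3 without SP3 replicate 2, with AGO18 and AGO7 added.

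**Figure D4:**
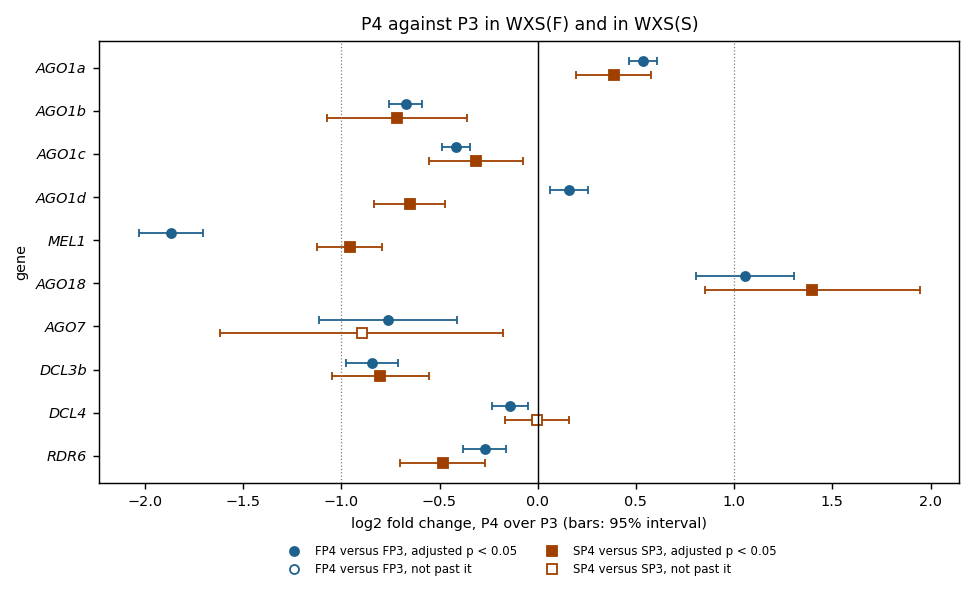
Log2 fold change of P4 over P3 for each of the 10 genes in WXS(F) (circles) and WXS(S) (squares), with bars for the 95% interval, filled symbols for an adjusted p below 0.05 and dotted lines at -1 and 1. AGO18 lies on the right in both types (1.06 and 1.399), and MEL1 falls by 1.87 in WXS(F) and by 0.96 in WXS(S).

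From P3 to P4 in WXS(F), 3 of the 10 genes rose (AGO1a, AGO1d and AGO18) and 7 fell, where 26.5% of the 24926 genes tested rose and 24.7% fell. In WXS(S), 2 rose (AGO1a and AGO18) and 6 fell, where 21.6% of 23601 genes rose and 18.6% fell. The medians of the 10 genes were -0.34 and -0.57, beside -0.02 and 0.03 over all genes. MEL1 and AGO18 were the DEGs in WXS(F), where 6.13% of all genes were lower DEGs and 12.9% higher ones, and AGO18 was the DEG in WXS(S), where the shares were 6.85% and 12.8%. Without FP3 replicate 3, AGO18 was no longer a DEG in WXS(F) and the count was 1. Without SP3 replicate 3, MEL1 joined AGO18 in WXS(S) and the count was 2. These comparisons share libraries with those between types, so they are not separate evidence.

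The interaction of type and stage was called for 2 of the 10 genes, AGO1d (higher) and MEL1 (lower), where 8.35% of the 26392 genes tested were higher and 11.4% lower. Neither passed the fold threshold, so 0 were DEGs by edgeR, and 0 were DEGs with DESeq2 or limma. The DEG share of all genes was 3.26% higher and 6.62% lower. At an unadjusted p below 0.05, 4 of the 10 genes had an interaction, and the share of all genes at that threshold was not computed. Without SP3 replicate 3, AGO1a (adjusted p = 0.0185) and RDR6 (adjusted p = 0.0498) were called as well, which made 4 of 10.

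FP3 and SP4 differ in both type and stage, and their replicate ranges overlapped for AGO1b, AGO7 and DCL3b. The share of all genes with such an overlap was not computed, so how usual it is cannot be said. Set side by side with no test, the means in FP3 and SP4 were 741 and 724 CPM for AGO1b, 4.70 and 4.49 for AGO7, and 50.9 and 52.5 for DCL3b. The ranges of the other genes were separate, with means of 111 and 129.6 CPM for MEL1, 54.7 and 63.5 for RDR6, 308 and 372 for AGO1d, 201.5 and 284 for AGO1a, and 4.12 and 21.1 for AGO18, all lower in FP3, whereas AGO1c and DCL4 were lower in SP4.

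The other small RNA pathway genes of rice, a list of 27, had calls in both directions. The list held 12 Argonautes, 6 Dicers, 4 RNA polymerases and 5 partners and regulators. Among the last were the bHLH regulators TIP2 and EAT1, which are not themselves parts of the small RNA machinery. At P3, 25 of them were tested, of which 3 were higher, 8 lower and 14 without a call in WXS(F), with a median of -0.05, where 23.7% of all genes tested were higher and 19.2% lower. At P4, of 26 tested, 5 were higher, 9 lower and 12 without a call, with a median of -0.16, where 28% of all genes were higher and 24.5% lower. From P3 to P4, 5 rose and 11 fell of 26 in WXS(F), where 26.5% of all genes rose and 24.7% fell. In WXS(S), 5 rose and 5 fell of 26, where 21.6% rose and 18.6% fell.

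DEGs between types in this list were 1 higher and 2 lower of 25 at P3, where 14.8% of all genes were higher and 6.74% lower DEGs, and 1 higher and 2 lower of 26 at P4, where the shares were 15.4% and 6.87%. The lower DEGs were TIP2 and EAT1 at P3 and TIP2 and RDR4 at P4. The higher DEGs were AGO3 at P3 and AGO12 at P4. TIP2, a bHLH regulator of the tapetum, stood at 12.7, 12.04 and 10.7 CPM in FP3 and 46.2, 58.4 and 33.4 in SP3. At P4 it was 10.3, 11.9 and 10.5 CPM in FP4 against 71.9, 61.8 and 76.0 in SP4. Its level was thus lower in every WXS(F) library, with a log2 fold change of -1.91 at P3 (SE 0.20, adjusted p = 0.000627) and -2.69 at P4 (SE 0.10, adjusted p = 4.96e-06). EAT1, the bHLH protein that acts after TIP2 and is known to drive phasiRNA precursors of the longer class, differed in direction between the stages. It was lower in FP3 (9.81 to 13.3 CPM) than in SP3 (14.9 to 37.9 CPM), at -1.30 on the log2 scale (SE 0.36, adjusted p = 0.0259). That call was kept in 6 of 14 alternatives. It was lost without FP3 replicate 1, 2 or 3 (adjusted p = 0.0587, 0.0700 and 0.0886) and without SP3 replicate 1 or 3 (adjusted p = 0.0677 and 0.0515). Limma on log2(FPKM + 1) and on log2(FPKM + 0.1) lost it too (adjusted p = 0.0688 and 0.0650). In FP4 (35.4 to 44.0 CPM) it was higher than in SP4 (18.9 to 26.8 CPM), at 0.79 on the log2 scale (SE 0.15, adjusted p = 0.00438). From FP3 to FP4 EAT1 rose by 1.77 (SE 0.14, adjusted p = 0.000103), and its interaction of type and stage was 2.14 (SE 0.41, adjusted p = 0.00455).

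AGO3, which has an adjacent near-copy in AGO2 with which reads may be shared, was low in SP3 alone. It had 5.94 to 6.66 CPM in FP3, 0.715 to 0.884 in SP3, 4.38 to 5.43 in FP4 against 3.90 to 5.95 in SP4. It was higher in FP3 than in SP3 by 2.97 on the log2 scale (SE 0.20, adjusted p = 0.000114) and rose from SP3 to SP4 by 2.56 (SE 0.26, adjusted p = 0.000720), with an interaction of -2.85 (SE 0.27, adjusted p = 5.27e-05). The mean of AGO2 was also lowest in SP3, at 64.4 CPM against 109 (FP3), 99.5 (FP4) and 78.5 (SP4). Its P3 difference was not called (0.79, SE 0.29, adjusted p = 0.0715), and sharing of reads was not tested. AGO12 had few counts, with 0, 2 and 5 in the SP4 libraries against 59, 105 and 61 in FP4 (log2 fold change 4.76, SE 0.71, adjusted p = 0.00177), and the fitted fold depends on those few counts. It rose from 11, 14 and 19 counts in FP3 (log2 fold change 2.44, SE 0.38, adjusted p = 0.00213).

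RDR4 fell from P3 to P4 in both types. It was 90.7 to 94.97 CPM in FP3, 141 to 142 in SP3, 16.7 to 17.7 in FP4 against 33.0 to 38.0 in SP4. It fell by 2.42 in WXS(F) (SE 0.04, adjusted p = 5.51e-07) and fell by 1.95 in WXS(S) (SE 0.09, adjusted p = 4.35e-05) on the log2 scale. RDR4 was lower in FP4 than in SP4 (log2 fold change -1.05, SE 0.07, adjusted p = 5.48e-05). It was also lower in FP3 than in SP3 (log2 fold change -0.57, SE 0.07, adjusted p = 0.00101), a result named after its value was seen. Its neighbour RDR3 fell by 1.15 in WXS(S) (SE 0.13, adjusted p = 0.00120) and by 1.17 in WXS(F) (SE 0.10, adjusted p = 0.000139), the latter named after its value was seen. AGO14, an Argonaute related to MEL1, rose by 1.99 in WXS(F) (SE 0.14, adjusted p = 7.10e-05) and by 1.19 in WXS(S) (SE 0.14, adjusted p = 0.00109), the opposite direction to MEL1.

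**Figure D5:**
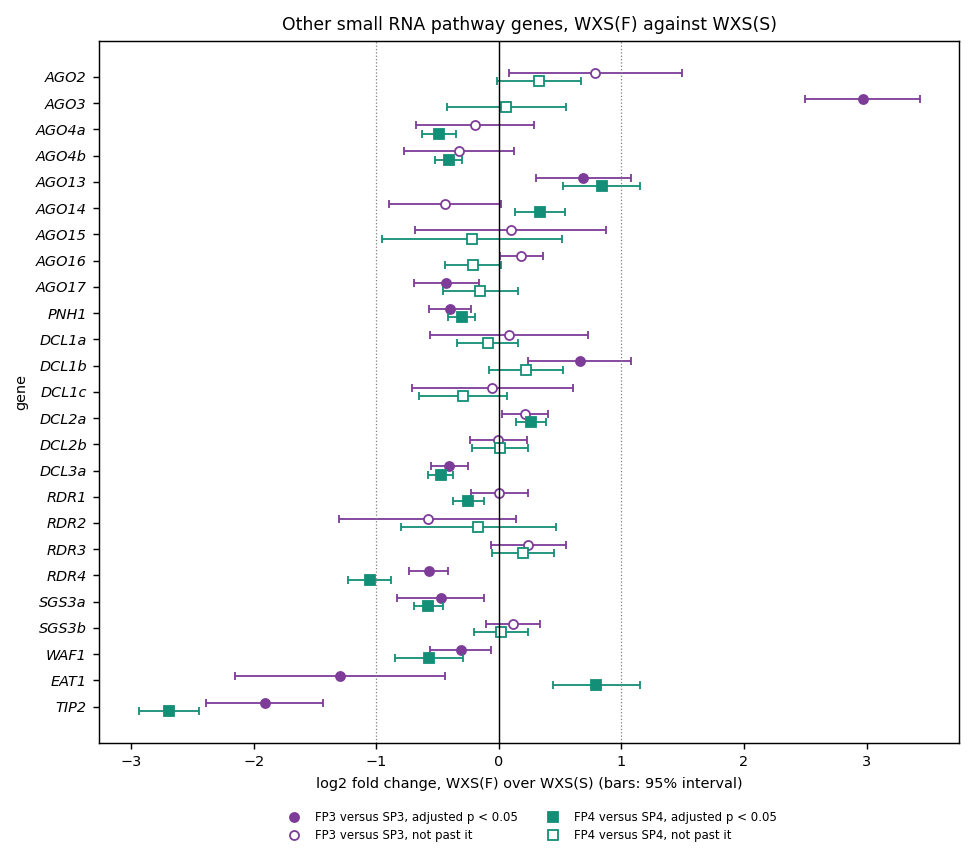
Log2 fold change of WXS(F) over WXS(S) for the other small RNA pathway genes tested at both stages, P3 as circles and P4 as squares, with bars for the 95% interval and filled symbols for an adjusted p below 0.05. TIP2 lies at -1.91 and -2.69, AGO3 at 2.97 at P3, and most other genes lie between the dotted lines at -1 and 1.

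Other tissue markers also moved with the groups. The summed FPKM of 7 floral organ MADS genes was 254 to 271 in FP3, 429 to 659 in SP3, 442 to 480.3 in FP4 against 495 to 542 in SP4, and 6 of the 7 were lower in FP3 than in SP3. That of 4 green tissue genes was 99.9 to 107 in FP3, 80.7 to 129 in SP3, 505 to 541 in FP4 against 289.6 to 327 in SP4. Of these 4, 3 (RBCS, CAB1R and PSBO) were lower and 1 (CAB2R) higher in FP3 than in SP3, and at P4 1 (RBCS) was lower and 2 (CAB1R and CAB2R) were higher in WXS(F). For 2 carpel and ovule genes the sum was 3.61 to 4.40, 6.03 to 9.65, 10.96 to 12.1 and 5.98 to 7.14 in the same order. Their part in the levels of the pathway genes was not tested.

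Genes with the most similar pattern over the 4 groups were looked up for MEL1, AGO18, DCL3b and AGO1d, by the root mean square difference of centred log2 CPM group means among the 21028 genes whose mean reached 1 CPM. For MEL1 the closest were LOC_Os06g06480 (0.037), LOC_Os12g06980 (0.058) and LOC_Os02g47150 (0.060), and 11 genes came closer than 0.1. DCL3b had LOC_Os03g51880 (0.021), LOC_Os04g42580 (0.046) and LOC_Os04g55240 (0.047), with 66 genes closer than 0.1. AGO1d was nearest to LOC_Os09g34290 (0.038), LOC_Os03g60840 (0.041) and LOC_Os05g07210 (0.041), with 107 genes closer than 0.1. AGO18 had 1 gene closer than 0.1, LOC_Os01g59070 (0.078), followed by LOC_Os01g65660 (0.119) and LOC_Os12g29605 (0.119). Fewer genes therefore lay within this distance of AGO18 than of the other 3. The distance is on unscaled log2 values, so it does not count the genes that were lowest in FP3 and highest in SP4. With 4 group means behind each pattern, such likeness is a description.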

How the data were processed

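RNA-seq of 12 libraries (3 biological replicates per group, mapped to type and stage from the labels) was analysed. The authors used HISAT2 (alignment of strand-specific reads, MSU7 genome) and StringTie, and they deposited estimated read counts per gene as whole numbers, used here as they stand, and FPKM values scaled to gene length and library size. All columns matched a sample (0 left out). Counts were tested with edgeR 4.0.16 in R 4.3.3 (filterByExpr, TMM, glmQLFit, glmQLFTest), with the libraries of the groups compared, or all 12 for the interaction, and Benjamini-Hochberg adjustment over all genes tested. SE is the log2 fold change divided by the root of F, and the 95% interval is the SE times the t quantile at the total degrees of freedom of the fit. Summaries and figures used pandas 2.3.3, numpy 2.4.6 and matplotlib 3.10.9 under Python 3.11.15. On simulated data with 200 genes changed 4-fold, 160 were recovered in FP3 versus SP3 (24405 genes, 17 false calls), 186 in FP4 versus SP4 (24645 genes, 7), 177 in FP4 versus FP3 (24926 genes, 7), 165 in SP4 versus SP3 (23601 genes, 6) and 144 in the interaction (26392 genes, 6), none in the wrong direction. A call in the simulation needed both the adjusted p and the fold threshold of a DEG. These numbers therefore do not cover calls by adjusted p alone.

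Named were all 10 genes, of the list of 27 the DEGs of a comparison (at most the 4 with the largest change, and in the interaction those that differed), and the 3 genes most similar in pattern to each of 4 genes. The genes, lists and tests were chosen with earlier results of these data known. Each result was also computed with DESeq2 1.42.0, with scaling by library totals in place of TMM, with no filter or a filter of 10 counts in each library, with a block for the replicate number, with limma 3.58.1 on log2(FPKM + 1) and on log2(FPKM + 0.1), with a single model of the 12 libraries, with p-values left unadjusted, and with each library omitted in turn. The labels do not say which plants a replicate number stands for. Gene positions on MSU7 and gene sequences were not used here, and neither were the 8 ATAC-seq and 8 ChIP-seq libraries, so promoter accessibility was left out.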

Additional observations from a re-analysis of the deposited data

Results flagged for a closer look

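For 6 genes the gap between the types was not the same at P3 and P4, by edgeR's test of the interaction itself. They were 1 higher and 1 lower of the 10 genes, and 2 higher and 2 lower of the list of 27. Of all 26392 genes tested, 8.35% were called higher and 11.4% lower. Among the 10 genes, the interaction was 0.85 for AGO1d (adjusted p = 4.16e-05), whose difference shrank from -0.92 at P3 to -0.13 at P4 on the log2 scale. It was -0.87 for MEL1 (adjusted p = 0.000102), whose difference grew from -1.18 to -2.11.

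In the list of 27, the interaction was -2.85 for AGO3 (adjusted p = 5.27e-05), 2.14 for EAT1 (adjusted p = 0.00455), 0.84 for AGO14 (adjusted p = 0.0111) and -0.42 for RDR4 (adjusted p = 0.00556). The last pair did not pass the threshold in limma on log2(FPKM + 1) (adjusted p = 0.0502 for AGO14 and 0.278 for RDR4). They did not pass it in limma on log2(FPKM + 0.1) either (adjusted p = 0.0682 and 0.0962). The 6 values differ in direction, and their causes were not tested.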

How the results depend on the processing

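Of 750 alternative values for the 50 fold changes of the 10 genes, 674 kept direction and side of the threshold, 39 lost a call, 15 gained one and 22 changed sign. None of the 35 called fold changes changed sign. Of 495 values for the 34 named fold changes in the list of 27, 465 kept both, 30 lost a call and 0 changed sign. The causes of these changes were not tested.

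The number of DEGs among the 10 genes became 2 in FP3 versus SP3 with limma on log2(FPKM + 0.1), 1 in FP4 versus SP4 with limma on log2(FPKM + 1), 1 in FP4 versus FP3 with library totals and with limma at either pseudocount, and 2 in SP4 versus SP3 with DESeq2 and with limma on log2(FPKM + 0.1). At any fold, the interaction was called higher for 3 and lower for 1 of the 10 genes with DESeq2, and for 2 and 1 with at least 10 counts in every library, in place of 1 and 1. Leaving out each library gave 1 to 3, 2 to 2, 1 to 2 and 1 to 2 in the same order and 0 to 0 in the interaction. In the list of 27, limma on log2(FPKM + 1) gave 1, 1, 3 and 1, in place of 3, 3, 5 and 4, and leaving out each library gave 2 to 4, 3 to 3, 5 to 5 and 4 to 5. A pseudocount of 1 shrinks the fold of genes with low FPKM by construction.

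Sign changes concerned uncalled values. AGO1a in FP4 versus SP4 became -0.0832 with library totals, -0.0202 and -0.0206 with limma at a pseudocount of 1 and 0.1, and -0.0213 to 0.0615 without each library. DCL4 in SP4 versus SP3 became 0.0013 with no filter and -0.0737 to 0.0065 without each library. The interaction became -0.0539 for AGO1b with library totals (-0.0498 to 0.215 without each library), -0.0758 to 0.327 for AGO7 without each library, and for DCL3b 0.0365 with DESeq2, 0.0303 with at least 10 counts in every library, 0.0482 with limma on log2(FPKM + 1) and -0.116 to 0.129 without each library. Library totals moved the median of all genes to -0.11 in FP4 versus SP4, -0.12 in FP4 versus FP3 and -0.15 in the interaction.

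No pairing by replicate number was seen in expression: same-numbered libraries had correlations of -0.035 to 0.030 over 12 pairs, and 4 of the 12 matched best with their own number. With the replicate number as a block, the DEG counts of the 10 genes were unchanged at 1, 2, 2 and 1, AGO7 (adjusted p = 0.0689), EAT1 (0.0507) and SGS3a (0.0730) were no longer called in FP3 versus SP3, AGO1c (0.0948) was no longer called and AGO7 (0.0386) was called in SP4 versus SP3, and no other call changed among these 50 and 34 fold changes. The planned count of promoter THSs and its alternatives were not run. AGO12 rests on few counts, and an exact permutation test of 3 against 3 libraries cannot go below p = 0.1.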

Other observations

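Some other small RNA genes kept a direction between types at both stages. These were chosen after their values were seen. SGS3a, the partner of RDR6 in making double-stranded RNA, was lower in WXS(F), with log2 fold changes of -0.48 at P3 (adjusted p = 0.0392) and -0.58 at P4 (adjusted p = 0.000154), but its P3 call was lost without FP3 replicate 1, 2 or 3 (adjusted p = 0.0979, 0.0718 and 0.119) or SP3 replicate 1 (adjusted p = 0.0541). DCL3a, the Dicer of the siRNAs that direct DNA methylation, was lower at -0.41 (adjusted p = 0.00289) and -0.48 (adjusted p = 0.000153). PNH1, an Argonaute of meristems and vasculature, was lower at -0.40 (adjusted p = 0.00511) and -0.31 (adjusted p = 0.00198). AGO13 went the other way, higher by 0.69 at P3 (adjusted p = 0.0146) and by 0.84 at P4 (adjusted p = 0.00207), its P3 call being lost without FP3 replicate 2 (adjusted p = 0.0875) or SP3 replicate 2 (adjusted p = 0.0666). With limma the P3 calls of AGO13 (adjusted p = 0.103 and 0.122 at a pseudocount of 1 and 0.1) and PNH1 (0.118 at both) were lost as well. None of these passed the fold threshold.

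DCL2a and DCL2b, Dicers of siRNAs from viruses and inverted repeats, rose from P3 to P4 in both types. In WXS(F) the rises were 0.52 (adjusted p = 7.63e-05) and 0.57 (adjusted p = 7.74e-05), and in WXS(S) they were 0.45 (adjusted p = 0.00698) and 0.54 (adjusted p = 0.0171). The rise in WXS(S) was lost with limma for DCL2a (adjusted p = 0.233 and 0.226 at a pseudocount of 1 and 0.1) and DCL2b (0.129 and 0.128), and for DCL2b without SP3 replicate 2 or 3 or SP4 replicate 2 (adjusted p = 0.0564, 0.0563 and 0.0557). AGO4b, an Argonaute of the DNA methylation pathway, fell by 0.93 in WXS(F) (adjusted p = 4.79e-06) and by 0.86 in WXS(S) (adjusted p = 0.0118).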
